A study of Mus musculus with 26 samples.

Results

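The transcripts followed here encode 10 proteins of the Bcl2 family: the survival proteins Bcl2, Bcl2l1 (Bcl-xL) and Mcl1, the pore-forming effectors Bax and Bak1, and the BH3-only proteins Bcl2l11 (Bim), Bbc3 (Puma), Pmaip1 (Noxa), Bid and Bad. They were chosen by symbol as core members of the family and make up 10 of the 13765 genes in the deposited table. All 10 passed the filter on low values that left 9106 genes for testing. The values come from CD4+CD8+TCR- double positive (DP) cells, the thymocyte stage before a T-cell receptor is displayed. Cells were sorted from 3 sites of female C57BL/6J mice aged 8 weeks: the thymus, the adipose tissue of the mediastinum and the arch of the aorta. No treatment or engineered allele is named for any group. Tissue of 5 mice was joined in each pool, and each tissue had 4 pools. Arch and adipose tissue were enzymatically digested, and digestion is not stated for thymus. If thymus was not digested, site and digestion cannot be told apart in any comparison with thymus. The part of digestion in the results was not tested. Cells were collected in lots of 400, and 200 cells went into each of the 26 libraries (9 from thymus, 8 from adipose tissue and 9 from arch). The table gives 1 normalised read count per gene and pool, so n = 4 pools per tissue throughout, and p-values measure the spread between these pools.

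Bcl2 family proteins decide at the outer membrane of the mitochondrion whether a cell survives. Bax and Bak1 can open pores that release cytochrome c, the survival proteins hold them back, and BH3-only proteins free or activate them by inserting their BH3 helix into a groove of the other members. In the thymus, Bcl-xL is the main survival protein of DP cells, Bcl2 is low at that stage and returns in mature thymocytes, and Bim carries much of the death of cells whose receptor binds self-antigen strongly.

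The short BH3 segment is what the family shares, and the bases that encode it show how alike the members are at the point where they bind each other. It was searched for in 9 members, in the protein translated from the gene's annotated coding exons, and was found once in each. Pmaip1 was not searched. The segment was recognised by its conserved leucine and, further on, a small residue followed by aspartate. The 39 bases around it are given 5′ to 3′ on the coding strand (GENCODE M21, GRCm38), with the codons of those residues in capitals. The small residue is glycine in 7 of the 9, alanine in Bbc3 and serine in Bad.
Bcl2, chr1:106712575-106712613 (-), exon 1 of 2: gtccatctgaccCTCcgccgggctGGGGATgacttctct
Bcl2l1, chr2:152829697-152829735 (-), exon 2 of 3: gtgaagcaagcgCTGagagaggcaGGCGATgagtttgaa
Mcl1, chr3:95659424-95659462 (+), exon 1 of 3: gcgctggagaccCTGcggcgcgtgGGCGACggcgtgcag
Bax, chr7:45465997-45466035 (-), exon 3 of 6: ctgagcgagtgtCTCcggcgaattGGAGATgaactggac
Bak1, chr17:27022531-27022569 (-), exon 4 of 6: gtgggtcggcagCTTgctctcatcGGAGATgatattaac
Bcl2l11, chr2:128147138-128147176 (+), exon 3 of 5: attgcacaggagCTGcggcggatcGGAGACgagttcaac
Bbc3, chr7:16313761-16313799 (+), exon 3 of 4: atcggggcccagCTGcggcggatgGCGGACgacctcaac
Bid, chr6:120897289-120897327 (-), exon 4 of 6: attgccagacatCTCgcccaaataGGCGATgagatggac
Bad, chr19:6950780-6950818 (+), exon 3 of 4: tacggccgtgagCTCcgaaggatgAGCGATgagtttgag

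Depth and purity differed between pools. Recovered reads per pool ranged from 11577253 to 34599519, and thymus pool 3 and arch pools 2 and 4 had the fewest reads per library (5788626 to 7145620, against 8697682 to 14921918 in the other 9 pools). The 10 sort and identity genes of DP cells, such as Cd4, Cd8a, Cd8b1, Rag1, Rag2 and Ptcra, were detected in all 12 pools, with summed levels of 21640 to 24866 CPM (reads scaled to a common total) in thymus, 8105 to 13663 in adipose tissue and 8569 to 10233 in arch. T-cell receptor constant genes were not analysed here. Arch pool 4 stood apart with 6074 CPM over 10 fibroblast markers, led by Dcn at 2959, while the other arch pools had 125 to 313, thymus 88.9 to 298 and adipose tissue 59.1 to 390. Arch pool 2 held 1883 CPM of smooth muscle markers, led by Acta2, and 929 CPM of macrophage markers, led by Lyz2. Over the other 11 pools those sums reached at most 66.6 and 225 CPM. In adipose pool 1 the B cell markers summed to 1253 CPM, led by Cd74 at 1014, against at most 312 in any other pool. These 3 pools are called the mixed pools below. Arch differences of Bcl2l1, Mcl1, Bcl2l11, Pmaip1 and Bid, adipose differences of Bcl2l11 and some counts of called genes are also given without them. The same results are given without the 3 shallow pools (thymus pool 3 and arch pools 2 and 4). Both sets include arch pools 2 and 4, so either fit leaves arch pools 1 and 3. The part of other cells in the results was not otherwise tested. In bulk samples, fewer cells of a type and less RNA per cell cannot be told apart.

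A few of the 10 genes differed between the thymus and the other sites, and they went in opposite directions. Bcl2l11 was 14.0 times its thymus level in adipose tissue and 12.1 times in arch. Bcl2l1 was at 0.272 of its thymus level in arch and 0.435 in adipose tissue, where that difference missed the threshold. Pmaip1 rose in arch over a thymus that had no read in 2 of 4 pools, a call that 3 of 24 alternatives lost. Per kb of exon, Mcl1 was the most abundant survival transcript at all 3 sites. In thymus that order rests on the exon lengths used, as the means before division were 5818 for Mcl1 and 5838 for Bcl2l1. Neither effector passed the test in any comparison. The plot of normalised read counts by pool shows each value.

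**Figure D1:**
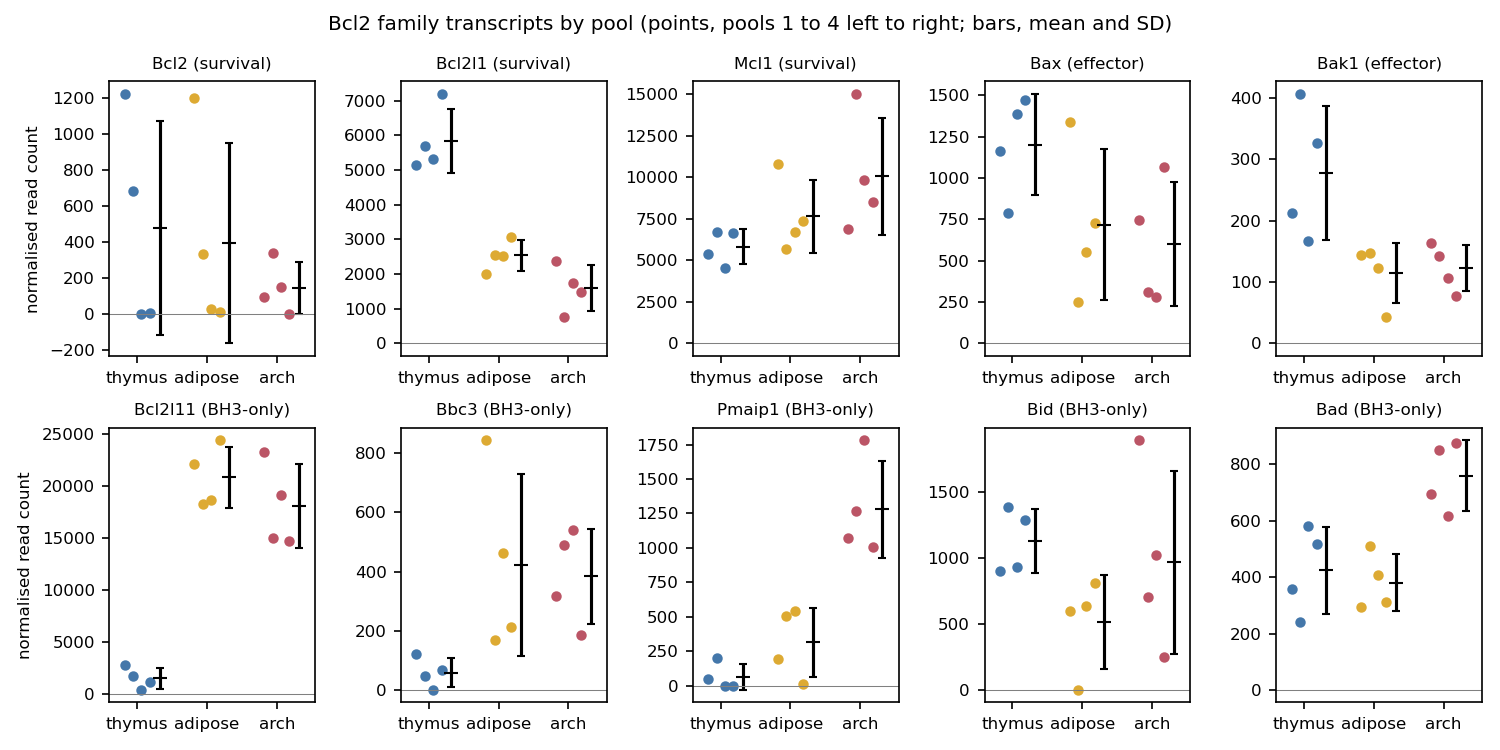
Normalised read count (vertical axis, linear, one scale per gene) of the 10 genes in pools 1 to 4 of thymus, adipose tissue and arch (coloured points, left to right); the bars give the mean and SD of 4 pools. Adipose and arch pools of Bcl2l11 (14708 to 24376) all lie above the thymus pools (377 to 2756), and those of Bcl2l1 (774 to 3064) all lie below (5132 to 7192).

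Among the survival genes, Bcl2l1 (chr2:152780668-152831728, minus strand) showed the clearest order of tissues. Its normalised read counts were 5132, 5704, 5324 and 7192 in thymus pools 1 to 4, 1994, 2563, 2534 and 3064 in adipose pools, and 2380, 774, 1739 and 1469 in arch pools. All 8 pools from outside the thymus lay below all thymus pools, and adipose and arch pools overlapped. The thymus mean was 5838 ± 934, the adipose mean 2539 ± 437 and the arch mean 1591 ± 665 (SD, n = 4). In arch against thymus, Bcl2l1 fell by 1.96 on the log2 scale (SE 0.34, 95% interval -2.68 to -1.24, limma adjusted p = 0.00146). It remained called in 24 of 24 alternative settings, at -1.54 without the shallow pools and -1.50 without the mixed pools. In adipose tissue the difference was -1.20 ± 0.34 (SE, 95% interval -1.92 to -0.48) and was not called, with a limma adjusted p of 0.0741. Here 6 of 24 alternatives did call it, among them the fit without arch pool 2 (adjusted p = 0.0236), a pool that is in neither group compared but adds to the shared estimate of spread. The adjusted p ranged from 0.00418 to 0.219 over the alternatives. The summed level of the 10 DP identity genes was lower outside the thymus as well, and its part in the Bcl2l1 result was not tested. In each comparison with thymus 7 of these 10 were called lower, beside 2.58% of all genes in arch and 0.670% in adipose tissue.

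Mcl1 (chr3:95658788-95663176, plus strand) encodes a short-lived survival protein that lymphocytes need at most stages. Its normalised read counts were 5394, 6680, 4540 and 6655 in thymus, 10793, 5706, 6712 and 7367 in adipose pools, and 6893, 15001, 9813 and 8520 in arch. Every arch pool lay above every thymus pool, with a narrow gap between 6680 and 6893, and adipose pools overlapped both. The means of 5818 ± 1042, 7645 ± 2207 and 10057 ± 3506 (SD, n = 4) put arch highest. The arch difference of 0.75 ± 0.27 (log2, SE, 95% interval 0.18 to 1.31) was not called by limma (adjusted p = 0.101), and DESeq2 alone among 24 alternatives called it (adjusted p = 0.0456). Without the shallow pools it was 0.40, without the mixed pools 0.52 and without arch pool 2, the highest, 0.53. Adipose tissue differed from thymus by 0.37 ± 0.27 (limma adjusted p = 0.647).

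Bcl2 (chr1:106538178-106714274, minus strand), the founding survival gene, was low and uneven. Its normalised read counts were 1223, 686, 0 and 4.95 in thymus, 1198, 334, 27.6 and 14.2 in adipose pools, and 94.5, 340, 148 and 0 in arch. Each tissue thus held pools near 0 beside pools at 148 or more, and the 3 ranges overlapped. A pool without a read allows a count of up to 3 reads, or 4.37 in thymus pool 3 and 4.66 in arch pool 4. The differences from thymus were -0.42 ± 1.52 in arch (log2, SE, 95% interval -3.60 to 2.77) and 0.17 ± 1.52 in adipose tissue (-3.01 to 3.35). Intervals this wide neither show a change nor show that Bcl2 was alike between tissues. An antisense transcript overlaps 6.09% of its exon length.

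Both effectors had lower means outside the thymus, and neither difference was called. Bax (chr7:45461697-45466898, minus strand) had normalised read counts of 1163, 788, 1390 and 1470 in thymus, 1337, 253, 550 and 729 in adipose pools, and 745, 310, 283 and 1068 in arch. The upper adipose and arch pools reached into the thymus range. The log2 differences were -1.15 ± 0.66 in arch (limma adjusted p = 0.316) and -0.92 ± 0.66 in adipose tissue (0.644). Bak1 (chr17:27019810-27029009, minus strand) was the weaker of the pair, at 212, 406, 166 and 326 in thymus, 144, 148, 123 and 43.4 in adipose pools, and 163, 143, 107 and 77.7 in arch. No Bak1 pool from outside the thymus exceeded the lowest thymus pool at 166, and arch pool 1 lay just below it at 163. Its differences of -1.03 ± 0.90 and -1.17 ± 0.90 were not called (limma adjusted p = 0.534 and 0.678). Ggnbp1, on the opposite strand, overlaps 25.5% of Bak1's exon length, and reads of the pair could not be separated there because use of strand in the counting is not stated.

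Bcl2l11 (chr2:128126038-128162547, plus strand) encodes Bim, a BH3-only protein that binds all of the survival proteins. Its normalised read counts were 2756, 1681, 377 and 1141 in thymus, 22144, 18233, 18609 and 24376 in adipose pools, and 23305, 15042, 19166 and 14708 in arch. The lowest pool outside the thymus was thus several times the highest thymus pool, and adipose and arch pools overlapped. The mean rose from 1489 ± 1000 in thymus to 20841 ± 2943 in adipose pools and 18055 ± 4044 in arch pools (SD, n = 4). Relative spread was widest in the thymus, where the SD was 67.2% of the mean, against 14.1% in adipose pools and 22.4% in arch. Thymus pool 3, the lowest, was one of the shallow pools. On the log2 scale the rise was 4.09 ± 0.40 in adipose tissue (SE, 95% interval 3.25 to 4.94, limma adjusted p = 4.09e-06) and 3.87 ± 0.40 in arch (3.02 to 4.71, 5.89e-06). Among the 9106 genes tested, Bcl2l11 ranked 13 by p in adipose pools and 21 in arch. Both calls held in 24 of 24 alternatives. Without the shallow pools the rises were 3.55 and 3.58, and without the mixed pools 4.06 and 4.12.

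The bases before the Bcl2l11 start are shown because Bcl2l11 and Bbc3 are known targets of FOXO factors, and the FOXO core GTAAACA, read on either strand, was found in a promoter window of each. The windows (RefSeq, GRCm38.p6) run from 250 bases before a start to 50 after it, and 15 of them covered 9 of the 10 genes; Pmaip1 had none in the table. The 250 upstream bases follow 5′ to 3′ along the gene's strand, with the match in capitals.
Bcl2l11, chr2:128125788-128126037 (+): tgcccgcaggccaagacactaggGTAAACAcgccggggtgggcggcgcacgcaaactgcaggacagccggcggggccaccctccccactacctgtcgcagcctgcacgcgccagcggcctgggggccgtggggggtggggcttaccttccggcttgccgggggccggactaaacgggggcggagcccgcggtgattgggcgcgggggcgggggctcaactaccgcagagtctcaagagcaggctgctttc
Bbc3, chr7:16310011-16310260 (+): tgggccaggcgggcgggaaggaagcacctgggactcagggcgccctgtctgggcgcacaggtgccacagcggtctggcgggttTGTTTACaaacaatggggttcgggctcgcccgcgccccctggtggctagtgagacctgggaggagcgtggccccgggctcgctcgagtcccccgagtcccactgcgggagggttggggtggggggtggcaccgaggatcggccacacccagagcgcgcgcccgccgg
The Bcl2l11 match lies 227 to 221 bases before the start, in 1 of its 2 windows, and the Bbc3 match, on the other strand as TGTTTAC, lies 167 to 161 bases before the start in 1 of 3 windows. Of all 32851 promoter windows, 3.65% held the motif. The CRE motif TGACGTCA (1.79% of windows) and the AP-1 motif TGANTCA (7.81%) matched none of the 15 windows of these genes, and the p53 decamer (8.36%) matched the single Bax window. These matches describe letters in a window and do not show binding. Transcripts of the FOXO factors themselves were not called: Foxo1 differed from thymus by 0.13 ± 0.67 in arch and 1.15 ± 0.67 in adipose tissue (limma adjusted p = 0.936 and 0.530), and Foxo3 by 1.03 ± 1.26 and 0.33 ± 1.26 (0.667 and 0.958). Transcript levels do not measure the activity of FOXO proteins, and the part of these factors was not tested.

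Bbc3 (chr7:16308393-16318205, plus strand) encodes Puma, which p53 and glucocorticoids are known to induce in thymocytes. Its normalised read counts were 121, 46.4, 0 and 67.6 in thymus, 843, 170, 463 and 213 in adipose pools, and 318, 489, 540 and 187 in arch. All pools from outside the thymus lay above all thymus pools. The differences of 2.56 ± 0.97 in arch (log2, SE, 95% interval 0.53 to 4.60) and 2.54 ± 0.97 in adipose tissue (0.50 to 4.57) still missed the threshold (limma adjusted p = 0.121 and 0.235). Its thymus level was low enough that 1 thymus pool alone reached the minimum of 100, so the gene entered the test through the other tissues.

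Pmaip1 (chr18:66458533-66465565, plus strand) encodes Noxa, a BH3-only protein that mainly binds Mcl1. Its normalised read counts were 50.9, 200, 0 and 0 in thymus, 195, 505, 538 and 14.2 in adipose pools, and 1069, 1269, 1780 and 1006 in arch. Arch pools stood above all others, and adipose pools overlapped the thymus pools. Pmaip1 also entered the test with 1 thymus pool at or above 100. In arch it rose over thymus by 4.67 ± 1.10 (log2, SE, 95% interval 2.37 to 6.96, limma adjusted p = 0.0136). The size is poorly fixed: it was 3.21 with a pseudocount of 100, 5.76 with 5 and 7.28 with voom weights, and 5.38 without thymus pool 2, the highest of the thymus pools. The ratio of means was 20.4, and 75.4 without that pool. The call was lost with edgeR (4.34, adjusted p = 0.204), without the shallow pools (4.37, 0.101) and without the mixed pools (4.81, 0.0833), and it held in the other 21 of 24 alternatives. In adipose tissue the difference from thymus was 2.11 ± 1.10 (limma adjusted p = 0.453).

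Bid and Bad link the family to death receptors and to growth factor signals, by caspase cleavage and by phosphorylation. Bid (chr6:120891930-120916853, minus strand) had normalised read counts of 903, 1388, 934 and 1286 in thymus, 600, 0, 639 and 813 in adipose pools, and 1890, 706, 1022 and 249 in arch. Adipose pools lay below thymus pools, and arch pools spanned the thymus range on both sides. The adipose difference of -1.97 ± 0.99 (log2, SE, limma adjusted p = 0.429) rested on adipose pool 2, which had no Bid read, and was -0.69 without that pool. In arch the difference was -0.52 ± 0.99 (limma adjusted p = 0.806), and it turned to 0.24 without the shallow pools and 0.32 without the mixed pools. Bad (chr19:6941861-6951899, plus strand) stood at 358, 241, 581 and 516 in thymus, 294, 510, 408 and 311 in adipose pools, and 696, 850, 616 and 877 in arch. Arch pools of Bad lay above both other tissues, with differences of 0.87 ± 0.67 from thymus and 0.98 ± 0.67 from adipose tissue that were not called (limma adjusted p = 0.464 and 0.633). Genes on the opposite strand overlap 17.7% of the exon length of Bid (Bcl2l13) and 20.5% of that of Bad (Gpr137), and Gm45808 on the same strand overlaps 12.2% of that of Bax.

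Counted together, 3 of the 10 genes were called in arch against thymus, where 6.57% of all 9106 genes were called. Bcl2l11 and Pmaip1 were higher (3.99% of all genes) and Bcl2l1 was lower (2.58%). In adipose tissue against thymus, Bcl2l11 alone was called, higher, where 2.84% of all genes were called (2.17% higher and 0.670% lower). Both comparisons use the same 4 thymus pools. Pools did not overlap for 7 of the 10 genes in arch against thymus (Bcl2l11, Mcl1, Bbc3, Bad and Pmaip1 higher, Bcl2l1 and Bak1 lower) and for 5 in adipose tissue against thymus (Bcl2l11 and Bbc3 higher, Bcl2l1, Bak1 and Bid lower). Over all genes that share was 13.2% and 10.5%. The median log2 difference of the 10 genes was 0.17 in arch and 0.03 in adipose tissue, beside -0.20 and -0.01 for all genes tested. The plot of log2 differences sets the members side by side.

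**Figure D2:**
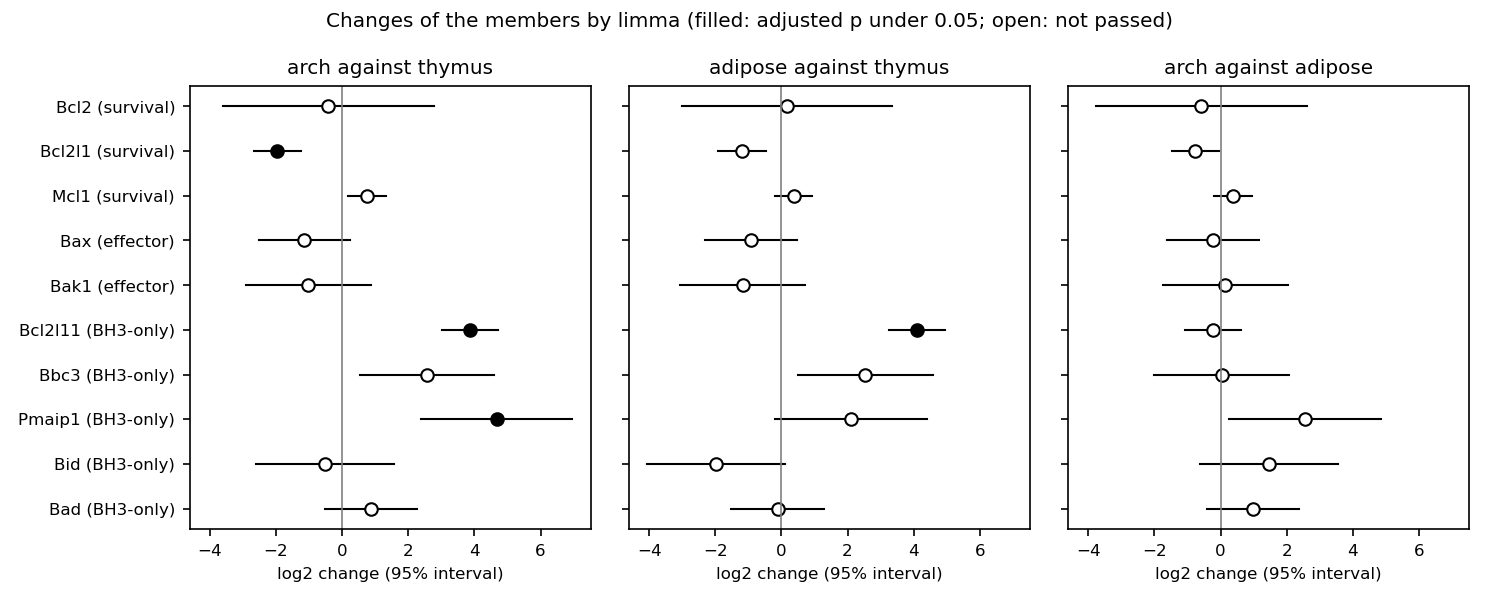
Log2 difference of each gene between tissues (horizontal axis, log2 of normalised read count + 20) with its 95% interval from limma, for arch against thymus, adipose tissue against thymus and arch against adipose tissue; filled points passed an adjusted p of 0.05. Bcl2l11 is filled in both comparisons with thymus (3.87 and 4.09), Bcl2l1 (-1.96) and Pmaip1 (4.67) in arch against thymus, and no point is filled in arch against adipose tissue.

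In arch against adipose tissue none of the 10 genes passed the test. limma, edgeR and DESeq2 each called 0 of 10, as did every other alternative, and 2 genes had an unadjusted p under 0.05. All-gene shares were also low here, at 0.176% (0.0988% higher and 0.0769% lower). The 2 genes were Pmaip1, at 2.56 ± 1.10 higher in arch (log2, SE, 95% interval 0.26 to 4.86, limma adjusted p = 0.447), and Bcl2l1, at -0.76 ± 0.34 (-1.48 to -0.04, 0.465). Pools did not overlap for Pmaip1 and Bad, both higher in arch, against 5.35% of all genes. For Bcl2l11 the arch minus adipose difference was -0.22 ± 0.40, with a 95% interval of -1.07 to 0.62, so differences within that interval remain possible.

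Levels of different genes were compared per kb of exon, using the union of all annotated exons, so a gene whose short isoforms dominate is understated. In thymus the order by mean level per kb was Mcl1 (1702), Bcl2l1 (1273), Bax (763), Bid (318), Bcl2l11 (185), Bad (166), Bak1 (115), Bcl2 (52.2), Bbc3 (27.6) and Pmaip1 (23.0). In adipose tissue Bcl2l11 led with 2596 ± 367, ahead of Mcl1 at 2237 ± 646 (SD, n = 4), a gap smaller than the spread between pools. In arch Mcl1 (2942 ± 1026) stood above Bcl2l11 (2249 ± 504), again within the spread, and Pmaip1 (469 ± 128) came next, ahead of Bax (382 ± 239) and Bcl2l1 (347 ± 145) by less than their spread.

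Summed per kb, the 3 survival genes came to 3027 ± 457 in thymus pools, 2833 ± 636 in adipose pools and 3305 ± 910 in arch pools (SD, n = 4), and the 3 ranges overlapped. What made up the sum was not the same. Bcl2l1 supplied 42.2% ± 4.09 of the survival sum in thymus, 20.5% ± 5.98 in adipose pools and 11.8% ± 6.83 in arch, and Mcl1 supplied 56.1% ± 2.66, 78.2% ± 4.75 and 87.8% ± 6.68. Bcl2 supplied at most 1.76% on average. The 5 BH3-only genes summed to 719 ± 125 per kb in thymus, 3202 ± 371 in adipose pools and 3467 ± 697 in arch, and ranged from 537 to 813 in thymus pools and from 2701 to 4248 in all others. Of that sum Bcl2l11 gave 24.2% ± 14.1 in thymus, 81.0% ± 5.04 in adipose pools and 64.8% ± 3.92 in arch. BH3-only genes thus made up 15.6% ± 2.26 of the level of all 10 genes in thymus, 49.5% ± 4.31 in adipose pools and 48.1% ± 8.54 in arch, while effectors made up 19.1% ± 4.04, 7.29% ± 2.86 and 6.27% ± 3.96. The effectors themselves summed to 879 ± 171 per kb in thymus, 503 ± 291 in adipose pools and 433 ± 233 in arch, with overlapping ranges. These are sums of transcripts and say nothing of protein. The stacked plot of levels per kb shows the parts in each pool.

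**Figure D3:**
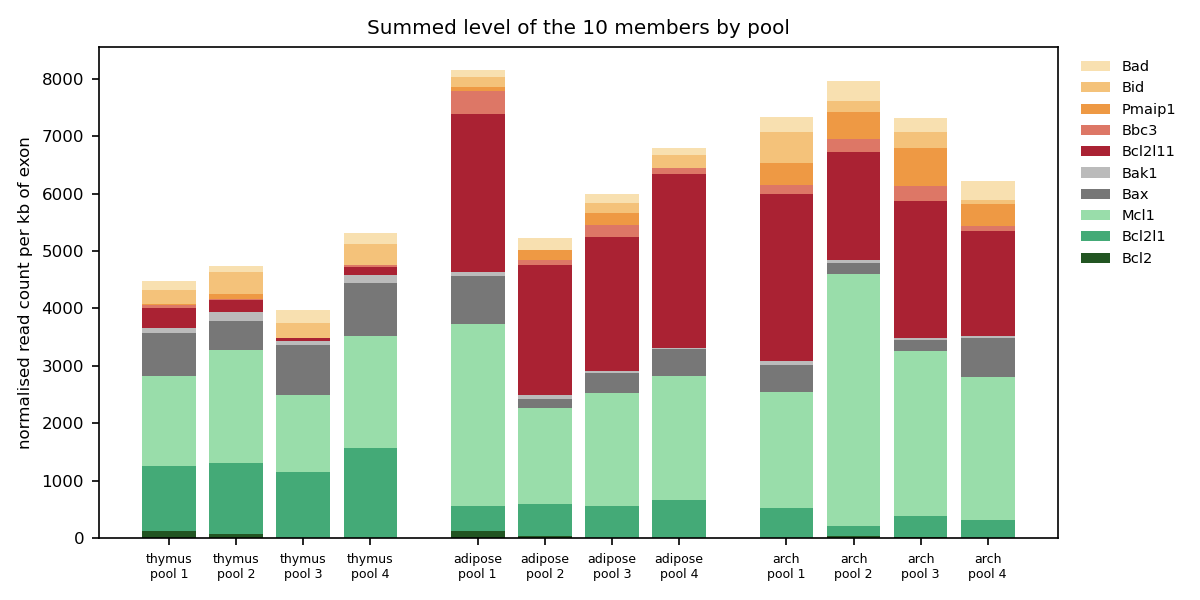
Normalised read count per kb of exon (vertical axis, linear, from 0) summed over the 10 genes in each of 12 pools, with survival genes in green, effectors in grey and BH3-only genes in red to yellow. The red Bcl2l11 segment is thin in the 4 thymus pools (mean 185) and is the tallest BH3-only segment in all adipose and arch pools (means 2596 and 2249).

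Within single pools, the level of Bcl2l11 per kb was 0.307, 0.168, 0.0405 and 0.0906 of that of Bcl2l1 in thymus pools 1 to 4. In adipose pools the ratio was 6.34, 4.06, 4.19 and 4.54, and in arch pools 5.59, 11.1, 6.30 and 5.72. Bcl2l11 was thus below Bcl2l1 in all 4 thymus pools and above it in all 8 others. Relative to Mcl1 the ratio was 0.217, 0.107, 0.0354 and 0.0730 in thymus, 0.873, 1.36, 1.18 and 1.41 in adipose pools, and 1.44, 0.427, 0.831 and 0.735 in arch. Here the values outside the thymus lay on both sides of parity, and all were above every thymus pool. No test was made of these ratios, since the genes in them were chosen with their differences known.

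**Figure D4:**
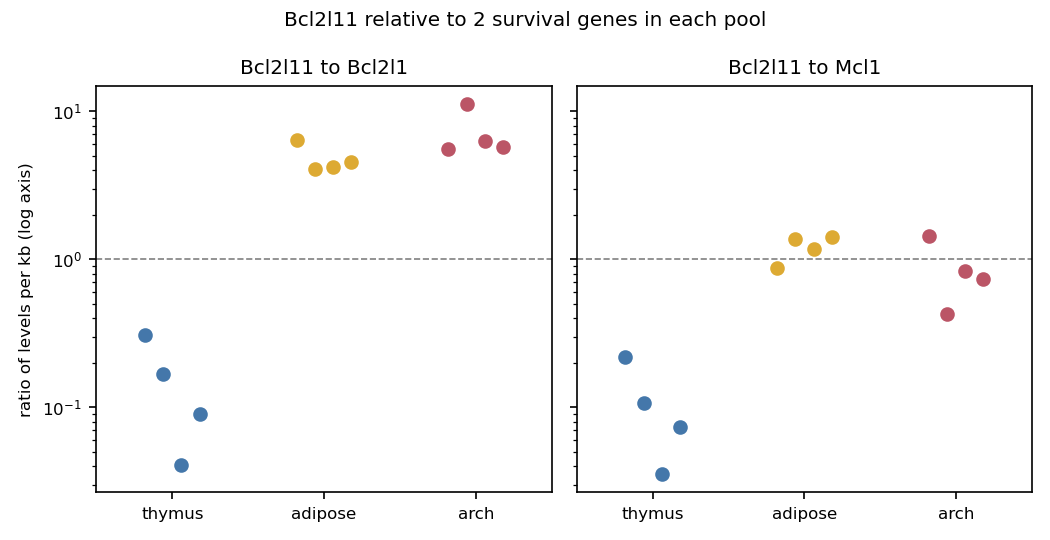
Ratio of the Bcl2l11 level per kb to that of Bcl2l1 (left) and Mcl1 (right) in each pool (vertical axis, log scale; points, pools 1 to 4 from left to right); the dashed line marks equal levels. Against Bcl2l1, thymus pools lie between 0.0405 and 0.307 and all others between 4.06 and 11.1.

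Other genes of the death and survival pathways were read from 6 lists. The all-gene shares beside them are those of limma. DESeq2 called more genes in all, with 1258 in arch and 694 in adipose tissue against thymus, and 300 in arch against adipose tissue. Downstream of Bax and Bak1 act the apoptosome, the caspases and their inhibitors. Of 19 such genes, all tested, limma called 0 in arch and 0 in adipose tissue against thymus, where 6.57% and 2.84% of all genes were called, so a count of 0 in a list this short is near the background. There were 2 and 1 at an unadjusted p under 0.05, and edgeR and DESeq2 also called 0. Their median log2 differences were -0.19 and -0.23. In arch against thymus, Apaf1, the scaffold of the apoptosome, differed by -1.36 ± 1.25, the initiator Casp9 by 0.96 ± 1.30 and the caspase inhibitor Xiap by -0.57 ± 0.52 (limma adjusted p = 0.559, 0.703 and 0.548). In adipose tissue these genes differed by 1.13 ± 1.25 (Apaf1), 1.15 ± 1.30 (Casp9) and 0.20 ± 0.52 (Xiap), with limma adjusted p of 0.809, 0.814 and 0.936. Of 16 further Bcl2 family genes, 11 were measured and 7 tested, and limma called 0 in either comparison (1 and 0 at an unadjusted p under 0.05; edgeR 0 and 0; DESeq2 1 and 0), with medians of -0.00 and 0.68.

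Of 11 genes listed for the death receptor pathway, 9 were tested. Tnfrsf1b, which encodes TNF receptor 2 and not itself a death receptor, rose in both tissues over thymus. Its normalised read counts were 1.13, 10.5, 0 and 188 in thymus, 2635, 951, 1690 and 1972 in adipose pools and 1131, 1491, 1933 and 3567 in arch. Its log2 differences were 5.53 ± 0.83 in arch and 5.41 ± 0.83 in adipose tissue (limma adjusted p = 0.000306 and 0.000594). With 1 thymus pool at or above the filter's minimum, Tnfrsf1b entered the test through the other tissues. Tradd, the adaptor of TNF receptor 1, fell by 3.20 on the log2 scale in arch (SE 0.94, limma adjusted p = 0.0479), from 638, 605, 395 and 549 in thymus to 158, 70.4, 21.8 and 0. This call was lost in 19 of 24 alternatives, with adjusted p of up to 0.282, while that of Tnfrsf1b held in 24 of 24 in arch and 23 of 24 in adipose tissue. Cflar, which blocks caspase-8, differed by -1.24 ± 0.67 in arch and -1.46 ± 0.67 in adipose tissue (limma adjusted p = 0.281 and 0.363). The list's median was -0.29 in arch and -0.49 in adipose tissue. In arch limma called 1 gene higher and 1 lower, beside 3.99% and 2.58% of all genes. In adipose tissue it called 1 higher and 0 lower, beside 2.17% and 0.670% of all genes. edgeR called 1 gene of the list in arch and 0 in adipose tissue, and DESeq2 called 2 and 1.

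A list of 18 transcription factors known to act on genes of the family, with regulators of the p53 protein among them, was tested in full. In arch 6 were higher and 0 lower, where 3.99% of all genes were called higher and 2.58% lower. In adipose tissue 4 were higher and 1 lower, beside 2.17% and 0.670% of all genes. The list's median differences were 0.84 and 0.87 (edgeR called 4 and 3, DESeq2 6 and 8), and no test set it against other genes. In arch the 4 with the smallest p were Klf2 (5.45 ± 0.89), Atf4 (1.95 ± 0.37), Nr4a1 (5.28 ± 1.02) and Nr3c1 (1.31 ± 0.29). Their limma adjusted p were 0.000664, 0.00269, 0.00326 and 0.00982. Klf2 is a factor of mature and quiescent T cells, Atf4 one of the integrated stress response, and Nr3c1 the glucocorticoid receptor. Nr4a1 is an early-response gene, induced by receptor signalling among other stimuli. In adipose tissue the 3 with the smallest p were Stat3 (1.89 ± 0.37), Nr4a1 (4.47 ± 1.02) and Stat5a (1.37 ± 0.32), with limma adjusted p of 0.00517, 0.0186 and 0.0226. Klf2 in arch and Stat3 in adipose tissue were called in 24 of 24 alternatives. Klf2 was low in thymus, at 80.9, 137, 0 and 86.6. With 1 thymus pool at or above the filter's minimum, Klf2 entered the test through the other tissues. In arch Atf4 was called in 23 and Nr4a1 and Nr3c1 in 22 each, and in adipose tissue Stat5a was called in 18 and Nr4a1 in 15. Nr4a1 had 4498, 1996, 1.46 and 395 in thymus, 20685, 9521, 11515 and 8571 in adipose pools, and 35068, 13679, 19383 and 19562 in arch, with no overlap between thymus and the others. Trp53, the gene of p53, differed by 0.71 ± 0.33 in arch and 0.02 ± 0.33 in adipose tissue (limma adjusted p = 0.215 and 0.993). Klf2 is also one of the 10 mature T cell markers, of which 9 were measured. The sum of these 9 was 794 to 1236 CPM in thymus, 444 to 612 in adipose tissue and 571 to 1138 in arch. The part of mature T cells in the values of the listed genes was not tested.

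Protein partners and turnover factors of the family (14 of 16 tested) had 2 genes called higher in arch, beside 3.99% of all genes. They were Usp9x, the deubiquitinase that stabilises Mcl1 (1.48 ± 0.39, limma adjusted p = 0.0267), and Ywhaq, a 14-3-3 protein of the kind that holds phosphorylated Bad (0.77 ± 0.22, 0.0386). Usp9x was called in 19 of 24 alternatives and Ywhaq in 11. edgeR called 0 of the 14 in arch and DESeq2 3. In adipose tissue limma called 0 of 14, beside 2.84% of all genes, with 3 at an unadjusted p under 0.05 (edgeR 0, DESeq2 1). Median differences were 0.29 and 0.16. Cytokine receptors that act on Bcl2 (4 of 7 tested) gave 0 calls by limma, edgeR and DESeq2 in either comparison, with 2 and 1 at an unadjusted p under 0.05 and medians of -0.98 and -0.56. Of all genes, limma called 6.57% in arch and 2.84% in adipose tissue. In arch against adipose tissue, where limma called 0.176% of all genes, limma and edgeR called 0 genes of these 6 lists. DESeq2, which called 300 genes in all there, called 2, with 1 in the partner list and 1 in the transcription factor list. The plot of pathway lists shows the tested genes, apart from 2 not reported here, for both comparisons with thymus.

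**Figure D5:**
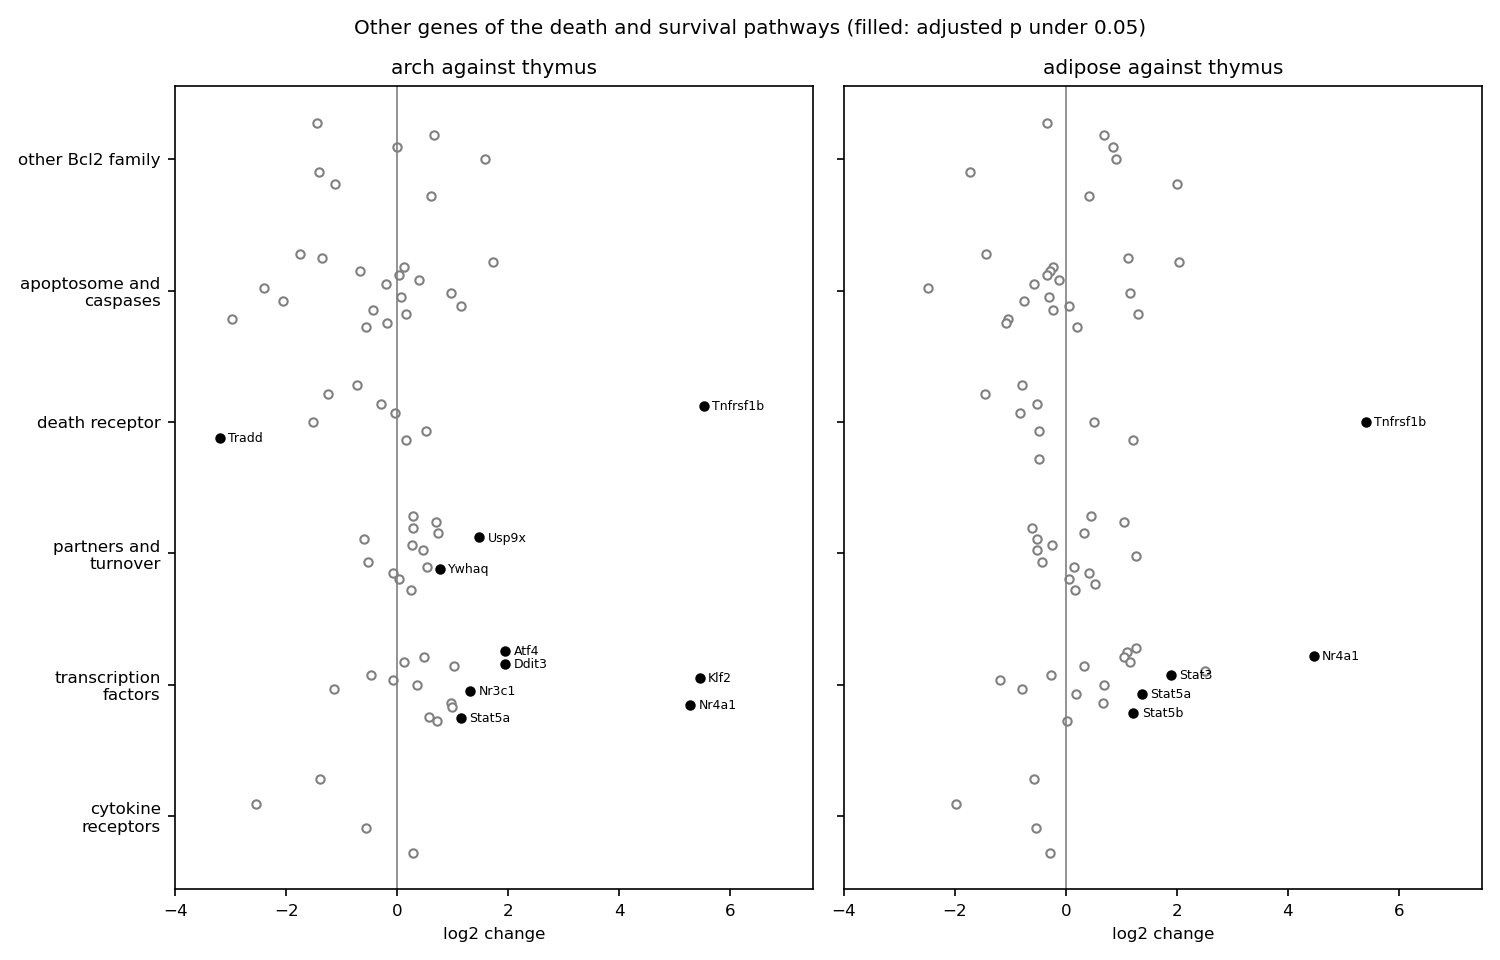
Log2 difference (horizontal axis, log2 of normalised read count + 20) of the tested genes of 6 lists in arch against thymus (left) and adipose tissue against thymus (right); each point is a gene, spread vertically for legibility, and filled points with names passed a limma adjusted p of 0.05. Filled points number 10 on the left and 5 on the right, and the row of apoptosome and caspase genes has none.

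Genes with the most similar pattern over the 12 pools were found by Pearson's r of log2 values. For Bcl2l11 they were Isca1 (0.98), Etf1 (0.97), Morf4l2 (0.97), Gch1 (0.96) and Klhl24 (0.96). For Bcl2l1 they were Elf1 (0.98), Coro1a (0.96), Ucp2 (0.96), Mospd3 (0.95) and Lck (0.94), and for Mcl1 they were Zswim6 (0.92), Arl5b (0.89), Erbb2ip (0.89), Rnf122 (0.88) and Ifitm2 (0.88). The closest to Bcl2 were Ms4a4b (0.81), Id1 (0.81), Arhgap26 (0.79), Zzef1 (0.79) and Klhl8 (0.78). The 12 points share 3 tissues, so a high r for Bcl2l11 or Bcl2l1 mostly restates the gap between thymus and the other sites.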

How the data were processed

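RNA of sorted DP cells was measured in 26 libraries, which the deposited table already combines into 12 pools. Per the labels' protocols, cDNA of polyadenylated RNA went through 18 cycles of amplification and single-end reads of 50 bp were taken. The submitters' processing notes name FastQC 0.11.5, STAR 2.6.0c and the build GRCm38. How reads were counted, and on which annotation, is not given in the sources used here. Deposited values are a normalised signal per gene and pool, called normalised read counts here: in each column all values are whole multiples of 1 step, and all 120369 values above 0 (100%) were whole within 0.01 after division by it, which gave 11577253 to 34599519 recovered reads per pool.

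Because the deposited unit is not raw counts, limma 3.58.1 (R 4.3.3, intensity trend) was fitted to log2(value + 20) over all 12 pools with tissue as the term. The pseudocount equals 0.983 CPM in the median column, or 10.5 to 35.3 reads, and lowers the change of weak genes. The filter asked for a value of 100 or more (4.91 CPM for the median column) in 4 or more pools, and a Benjamini-Hochberg adjusted p under 0.05 over 9106 genes was called. edgeR 4.0.16 and DESeq2 1.42.0 on recovered reads, voom weights, other pseudocounts, filters and scaling, only the 2 tissues compared, pool number as a block and leaving out pools were alternatives. Reads carry no molecular identifiers, so the limit for a count of 0 (3 reads) covers counting error only.

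All 10 members were named. Of the other lists, up to 4 called genes per list and comparison with the smallest p were named, plus Apaf1, Casp9, Xiap, Cflar and Trp53; Foxo1 and Foxo3 were added beside the promoter windows after their values were seen. Genes that the rule also names but that are missing from the text are not reported here. The members and lists were chosen with earlier results of these data known. Equal pool numbers are not said to mark the same mice. Marker lists were summed as CPM of recovered reads. Lists of natural killer and innate lymphoid cells (74.5 to 340 CPM), endothelial cells (27.7 to 286) and adipocytes (0 to 186) were summed too. Gene positions and exon lengths are GENCODE M21, promoters RefSeq. Bcl2a1a, Bcl2l10, Bok and Il7r, among other list genes, were not analysed here.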

Additional observations from a re-analysis of the deposited data

How the results depend on the processing

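Of the 10 genes, 3 were called in arch against thymus, 1 in adipose tissue against thymus and 0 in arch against adipose tissue, and with pool number as a replicate block the counts were also 3, 1 and 0. Whether equal pool numbers mark the same mice is not stated. The 12 same-numbered pairs correlated between -0.0316 and 0.0756, and the same number was the best partner in 5 of 12. Correlations this weak cannot decide it. Leaving out a pool gave 3 to 3, 1 to 2 and 0 to 0 calls. In adipose tissue against thymus the count was 2, by the addition of Bcl2l1, under DESeq2, voom weights, only the 2 tissues compared, without the shallow pools, without the mixed pools and without arch pool 2. In arch against thymus it was 2 (without Pmaip1) under edgeR, without the shallow pools and without the mixed pools, and 4 under DESeq2, which added Mcl1. Counts over all genes moved more. In arch against thymus the 598 genes became 365 with edgeR, 1258 with DESeq2, 308 without the shallow pools and 345 without the mixed pools, with 404 to 620 when a pool was left out. In adipose tissue against thymus the 259 became 694 with DESeq2 and 169 to 317 when a pool was left out. In arch against adipose tissue the 16 became 9 with a pseudocount of 5, 2 without a filter, 8 with edgeR, 300 with DESeq2, 0 without the shallow pools, 0 without the mixed pools and 2 to 17 when a pool was left out. The causes were not tested. No called difference of a member changed its sign. Called genes of the 6 pathway lists numbered 10, 6 and 0, and 5 to 12, 2 to 10 and 0 to 2 over the 24 alternatives. TMM scaling moved the median difference of all genes by under 0.1 in each comparison. Bcl2, Bbc3, Bid and Pmaip1 had pools without a read, where depth sets the lowest level that could be seen.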
